A study of Schizosaccharomyces pombe with 3 samples.

Results

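The genes described here encode 5 subunits of RNA polymerase II (RNAPII), *rpb1*, *rpb2*, *rpb3*, *rpb4* and *rpb9*, and 5 factors that act on the elongating enzyme, *tfs1*, *spt5*, *spt6*, *cdk9* and *pch1*. They were chosen by identifier and make up 10 of the 7049 features counted in fission yeast, *Schizosaccharomyces pombe*. RNA-seq was performed on 2 clones of the slow mutant, slow #1 (FBY2324) and slow #2 (FBY2325), and on 1 library of the wild-type parent (FBY2323). Both clones carry the N494D substitution in Rpb1, and all 3 strains are otherwise *h-* with deletions of *fex1* and *fex2* and the markers *his3-D1*, *ura4-D18*, *leu1-32* and *ade6-M216*. Cells were harvested in mid-log phase at 30 °C from EMM, a defined medium, to which the bases and amino acids needed by these auxotrophs had been added. Total RNA was depleted of ribosomal RNA before stranded libraries were made. The wild type was sequenced once, so that its spread can only be taken from that between the clones, and an exact permutation test of 2 libraries against 1 cannot go below a two-sided p of 0.333.

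RNAPII transcribes all mRNAs and many noncoding RNAs. Its catalytic center is formed by the largest and the second largest subunit, Rpb1 and Rpb2, around which the smaller subunits are arranged. During elongation the enzyme is accompanied by Spt5, which bridges the cleft over the nucleic acids, by Spt6, a histone chaperone that travels with it, and by Tfs1 (TFIIS), which enters the active site of a backtracked polymerase and stimulates cleavage of the RNA so that synthesis can resume. The kinase Cdk9, with its cyclin Pch1, forms P-TEFb, which phosphorylates Spt5 and the C-terminal domain of Rpb1. The question asked of these genes is whether the transcripts of the elongation machinery differ in amount in a mutant whose polymerase the authors describe as slow. Elongation rate itself was not measured in these libraries.

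The altered residue is shown first, since it is the only difference between the clones and their parent that the genotypes name. Residue 494 of the 1752 residues of Rpb1 is encoded by AAT, an asparagine codon, which in the RefSeq assembly ASM294v3 occupies bases 1592931 to 1592933 of chromosome II. The codon is read from the forward strand and belongs to the last coding exon, the 7th of 7. The reference sequence of the 93 bases centered on it, chrII:1592886-1592978, has this codon in capitals, and the codons just before it encode the aspartate-rich loop that holds the catalytic magnesium ion.

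rpb1 codon 494: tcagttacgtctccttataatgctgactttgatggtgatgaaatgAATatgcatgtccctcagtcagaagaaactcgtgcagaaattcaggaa

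In pairwise alignments of the RefSeq proteins the asparagine was shared by the largest subunits of the other nuclear polymerases. It aligned with residue 650 of Nuc1 (RNA polymerase I), where 19 of the 31 residues encoded above were identical, and with residue 500 of Rpc1 (RNA polymerase III), where 21 of 31 were. Over all aligned residues the identity with Rpb1 was lower, at 34.7% for Nuc1 and 39.4% for Rpc1. A change of 1 codon does not alter a count per gene, so the counts cannot show which libraries carry the mutation.

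Counts summed to 40746838 in slow #1, 30674459 in slow #2 and 31803128 in the wild type, and the 10 genes had between 783 and 54655 counts in each library. Levels are given as CPM, the count of a gene per 1000000 counts of its library after TMM scaling. All 10 genes were among the 6418 tested with the quasi-likelihood test of edgeR, in which a gene was called at an adjusted p under 0.01 and a fold change above 1.5. Of the marker genes named by the genotype, *ura4* had no count in any library, *his3* was at 14.3 to 18.5 CPM, *fex1* at 10.3, 8.13 and 17.2 CPM in slow #1, slow #2 and the wild type and *fex2* at 14.0, 18.9 and 22.3 CPM, so that 3 genes listed as deleted or disrupted retained counts in all 3 strains. The M-cell receptor gene *mam2* was at 188, 169 and 82.7 CPM in slow #1, slow #2 and the wild type. Its log2 fold change was 1.11 (edgeR, adjusted p = 0.011; DESeq2, adjusted p = 4.3e-07). In the same order, the M-factor precursor genes were at 298, 367 and 45.2 CPM (*mfm1*), 352, 297 and 173 CPM (*mfm2*) and 18.3, 19.3 and 2.84 CPM (*mfm3*). The P-cell genes *map2* and *map3* were at 17.5 to 44.2 CPM, and *mfm3* was below *map2* in every library. In RNA from whole cultures, fewer cells of a kind and less RNA per cell cannot be told apart.

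None of the 10 genes was called in the slow mutant in either direction, where 0.312% of all genes tested were called higher and 0.390% lower. At an adjusted p under 0.05 with the same fold, none was called either, against 6.79% of all genes higher and 5.59% lower. DESeq2, run on the same counts, also called none, with a background of 4.84% higher and 3.56% lower. An unadjusted p under 0.05 was reached by 1 gene in edgeR, *rpb3*, which was lower in the mutant, and by none in DESeq2; in edgeR that level was reached by 17.5% of all genes on the higher side and 17.9% on the lower side. The counts called at the strict threshold are few, and with 6.79% and 5.59% at the looser one, 10 genes with no call are near the background.

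**Figure D1:**
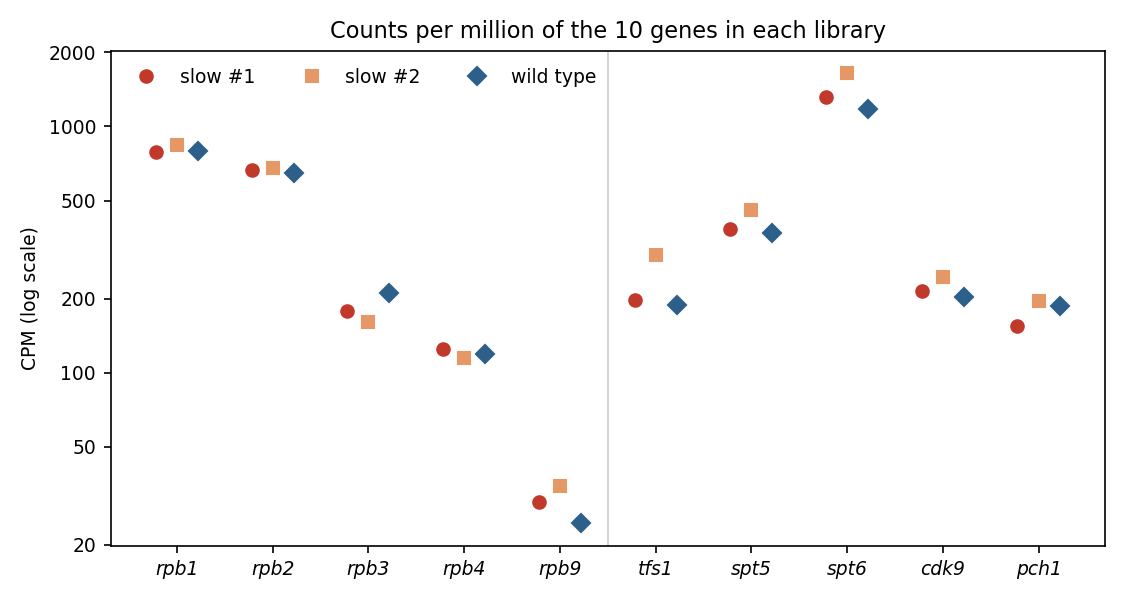
CPM (log scale) of the 10 genes in slow #1 (red circles), slow #2 (orange squares) and the wild type (blue diamonds), with the subunits left and the elongation factors right of the vertical line. The points of *rpb1*, *rpb2* and *rpb4* nearly coincide, *rpb3* is the gene with both clones below the wild type, and *tfs1* and *spt6* have slow #2 above the other libraries.

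Transcripts of the 2 catalytic subunits were close to the wild-type level in both clones. *rpb1* (SPBC28F2.12, chromosome II, 1591120 to 1596744, forward strand, 7 exons; coordinates here and for the other genes are those of the deposited table, ASM294v2) had 788 CPM in slow #1 and 837 CPM in slow #2, against 792 CPM in the wild type. The wild-type value thus lay between the clones, and the log2 fold change of the mutant over the wild type was 0.036 ± 0.157 (SE; 95% interval -0.35 to 0.42; edgeR, adjusted p = 0.887). The mutated gene therefore gave a transcript level that could not be distinguished from that of its parent. With TMM scaling the interval leaves out changes of 1.5-fold in either direction. With libraries scaled to *act1*, *nda2* and *fba1* the value was -0.15 ± 0.326 (SE), and the statement on 1.5-fold is not made for that scaling. *rpb2* (SPAC23G3.01, chromosome I, 850591 to 854385, forward strand, 2 exons) had 666 CPM in slow #1 and 676 CPM in slow #2, against 650 CPM in the wild type. Its log2 fold change was 0.047 ± 0.146 (95% interval -0.31 to 0.40; edgeR, adjusted p = 0.843). Both clones were above the wild type by a margin of 0.035 and 0.058 on the log2 scale, and *rpb2* was the member whose clones differed least from each other, by 0.022.

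The ratio of *rpb2* to *rpb1* counts, which does not depend on scaling between libraries, was 0.845 in slow #1 and 0.808 in slow #2, against 0.820 in the wild type. The wild type again lay between the clones. The transcripts of the largest and the second largest subunit were thus counted in nearly the same proportion in all 3 libraries.

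*rpb3*, whose product pairs with Rpb11 in the platform on which the polymerase is assembled, was the only member with both clones below the wild type. It had 178 CPM in slow #1 and 161 CPM in slow #2, against 211 CPM in the wild type. The differences from the wild type were -0.25 in slow #1 (95% counting interval -0.30 to -0.20) and -0.39 in slow #2 (-0.44 to -0.34) on the log2 scale. Over both clones the log2 fold change was -0.32 ± 0.127 (95% interval -0.62 to -0.011; edgeR, adjusted p = 0.132; DESeq2, adjusted p = 0.259), which did not pass the test after adjustment. The counting intervals cover counting error only and are much narrower than the edgeR interval, which holds the spread between the clones as well. Both clones lay below the wild type in 42.6% of all genes tested, and 21.1% of genes had a lower fold change than *rpb3*.

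The row of *rpb3* (SPCC1442.10c, chromosome III, 1782897 to 1787006, reverse strand, 3 exons) spans 4022 bases of exon, whereas its coding sequence has 891. It covers *trp3*, a gene of the tryptophan pathway on the opposite strand, over 1729 bases, 43.0% of the *rpb3* exons. *trp3* had 119 CPM in slow #1 and 118 CPM in slow #2, against 177 CPM in the wild type, and a log2 fold change of -0.57 (edgeR, adjusted p = 0.026), short of the threshold. The other antisense feature, the noncoding *SPNCRNA.1228*, overlaps 811 bases and had a log2 fold change of -0.099 (edgeR, adjusted p = 0.758). Read pairs were counted by strand, and the part of these neighbors in the value of *rpb3* was not tested.

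*rpb4* encodes a subunit of the stalk, which it forms with Rpb7 and which protrudes beside the RNA exit channel. The gene (SPBC337.14, chromosome II, 1055529 to 1056502, forward strand, 4 exons) had 125 CPM in slow #1 and 115 CPM in slow #2, against 119 CPM in the wild type. The wild type lay between the clones, and the log2 fold change was 0.019 ± 0.121 (95% interval -0.27 to 0.31; edgeR, adjusted p = 0.928). This was the smallest change among the 10 genes.

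*rpb9* encodes a small zinc-binding subunit that in budding yeast affects transcription fidelity and start site choice. It had 29.8 CPM in slow #1 and 34.7 CPM in slow #2, against 24.5 CPM in the wild type. The clones exceeded the wild type by 0.28 (95% counting interval 0.15 to 0.41) and 0.50 (0.37 to 0.64) on the log2 scale, with intervals that cover counting error only. Both clones lay above the wild type in 42.7% of all genes tested, and 79.8% of genes had a lower fold change than *rpb9*. The fold change over both clones was 1.32 (log2 0.40 ± 0.166; 95% interval -0.0066 to 0.80; edgeR, adjusted p = 0.146; DESeq2, adjusted p = 0.288), which did not pass the test. *rpb9* had the fewest counts of the 10 genes, 783 to 1232, and its counting intervals were the widest. Its row (SPAPYUG7.04c, chromosome I, 4751390 to 4752521, reverse strand, 5 exons) lies wholly within the antisense noncoding *SPNCRNA.1021*, which had 36.9 and 40.2 CPM in the clones and 34.5 CPM in the wild type (log2 fold change 0.16; edgeR, adjusted p = 0.456). It also shares 67 bases with *mid2*, an anillin-like gene of cell division, on the same strand (log2 fold change -0.27; edgeR, adjusted p = 0.285). With the counting options given, a read pair that touches both genes of such a pair on one strand is assigned to neither.

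**Figure D2:**
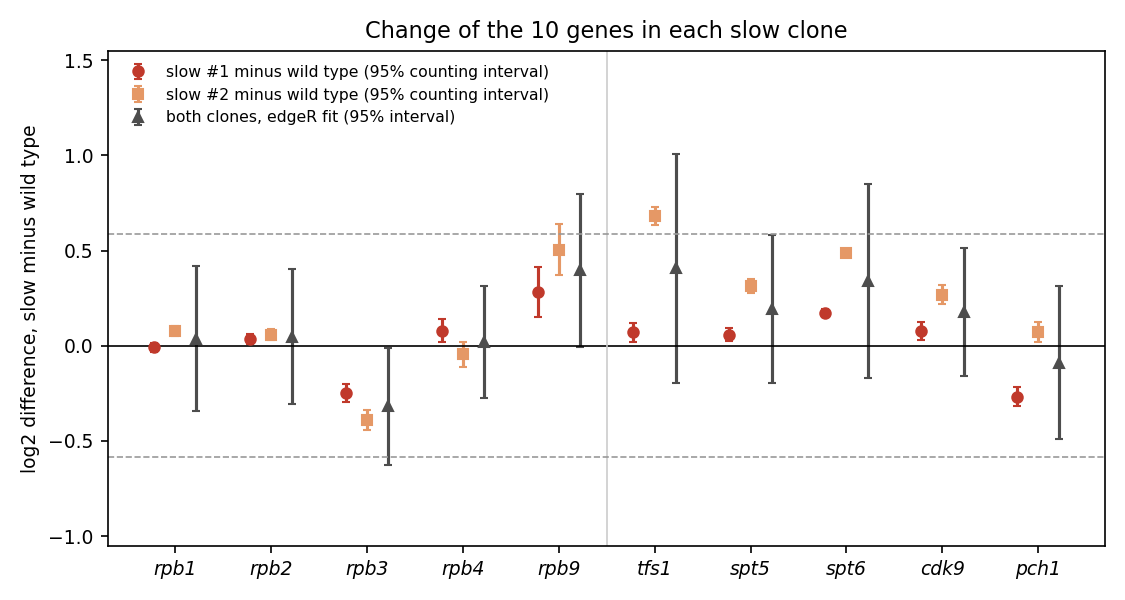
Difference of each gene from the wild type on the log2 scale, for slow #1 (red circles) and slow #2 (orange squares) with 95% counting intervals, and for both clones together from the edgeR fit (gray triangles, 95% interval); dashed lines mark 1.5-fold. Of the 10 gray intervals 6 lie between the dashed lines, those of *rpb3*, *rpb9*, *tfs1* and *spt6* reach past one, and in all 5 elongation factors the orange point is above the red one.

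Among the elongation factors, 4 of 5 were higher in both clones than in the wild type, and none passed the test. Over all 10 genes, 6 were higher in both clones (*rpb2*, *rpb9*, *tfs1*, *spt5*, *spt6* and *cdk9*), 1 was lower in both (*rpb3*), and 3 had the wild type between the clones. Of all genes tested, 42.7% were higher in both clones, as were 1955 of the 5014 nuclear protein-coding genes tested. The 10 genes had a median log2 fold change of 0.11, the subunits of 0.036 and the elongation factors of 0.19, beside 0.010 for all genes tested. For the nuclear protein-coding genes, to which all 10 belong, the median was -0.032. Taken per clone, the median of the 10 genes was 0.064 in slow #1 and 0.17 in slow #2, and that of the elongation factors was 0.070 in slow #1 and 0.32 in slow #2. Scaling the libraries to *act1*, *nda2* and *fba1* gave a median of -0.076 for the 10 genes and of -0.17 for all genes. These medians are descriptions, without a test.

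*tfs1* stood out by the difference between the clones. The gene (SPAC20H4.03c, chromosome I, 2114913 to 2116435, reverse strand, 5 exons) had 197 CPM in slow #1 and 301 CPM in slow #2, against 187 CPM in the wild type. Slow #1 was thus near the wild type (log2 difference 0.070; 95% counting interval 0.022 to 0.12), and slow #2 was above it by 0.68 (0.63 to 0.73), past 1.5-fold. The clones differed by 0.61, a gap larger than in 95.6% of all genes tested, where the median was 0.13. Over both clones the log2 fold change was 0.41 ± 0.248 (95% interval -0.19 to 1.01; edgeR, adjusted p = 0.287; DESeq2, adjusted p = 0.277). The ratio of *tfs1* to *rpb1* counts was 0.249 in slow #1 and 0.359 in slow #2, against 0.236 in the wild type, so that the excess in slow #2 was also present within the library. The higher value of *tfs1* rests on slow #2, and the clones share the genotype that the labels give. What separates them was not tested. The Tfs1 and Rpb9 proteins, both of which contain zinc ribbons, were identical at 22.9% of 109 aligned residues.

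*spt5* (SPAC23C4.19, chromosome I, 1063729 to 1066954, forward strand, 1 exon) had 383 CPM in slow #1 and 457 CPM in slow #2, against 368 CPM in the wild type. Its log2 fold change was 0.19 ± 0.161 (95% interval -0.20 to 0.58; edgeR, adjusted p = 0.431). Both clones were higher, slow #1 by 0.058 and slow #2 by 0.32. The gene encoding its partner in the DSIF complex, *spt4*, had far fewer counts, at 13.3 and 15.1 CPM in the clones and 8.75 CPM in the wild type (log2 fold change 0.70; edgeR, adjusted p = 0.062). The ratio of *spt5* to *spt4* counts was 28.7 in slow #1 and 30.4 in slow #2, against 42.0 in the wild type, where *spt4* had 280 counts. This ratio was lower in both clones, with counting intervals of the log2 difference of -0.76 to -0.34 in slow #1 and -0.69 to -0.25 in slow #2. The 3′ part of *spt5* overlaps *rqt4* on the opposite strand by 763 bases, and *rqt4* had a log2 fold change of -0.090 (edgeR, adjusted p = 0.598).

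*spt6* (SPAC1F7.01c, chromosome I, 4212476 to 4216888, reverse strand, 1 exon) had the most counts of the 10 genes and, per kilobase of exon, the highest level. It had 1320.1 CPM in slow #1 and 1644 CPM in slow #2, against 1172 CPM in the wild type. Both clones were higher than the wild type, slow #1 by 0.17 and slow #2 by 0.49 on the log2 scale, and the clones differed from each other by 0.32, more than in 82.5% of all genes. Its log2 fold change was 0.34 ± 0.211 (95% interval -0.17 to 0.85; edgeR, adjusted p = 0.296; DESeq2, adjusted p = 0.259). It had 37495 to 54655 counts in each library. *iws1*, which encodes a protein that binds Spt6, was at 149 and 163 CPM in the clones and 126 CPM in the wild type. The ratio of *spt6* to *iws1* counts was 8.87 in slow #1 and 10.1 in slow #2, against 9.31 in the wild type, which lay between them.

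The genes of P-TEFb, the kinase *cdk9* and its cyclin *pch1*, are given together. *cdk9* (SPBC32H8.10, chromosome II, 1470513 to 1473182, forward strand, 3 exons) had 214 CPM in slow #1 and 244 CPM in slow #2, against 203 CPM in the wild type. Its log2 fold change was 0.18 ± 0.139 (95% interval -0.16 to 0.51; edgeR, adjusted p = 0.403), with both clones higher. *pch1* (SPBC32F12.06, chromosome II, 2794446 to 2797457, forward strand, 4 exons) had 154 CPM in slow #1 and 195 CPM in slow #2, against 186 CPM in the wild type. For the cyclin the wild type lay between the clones, and the log2 fold change was -0.088 ± 0.166 (95% interval -0.49 to 0.31; edgeR, adjusted p = 0.731).

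The ratio of *cdk9* to *pch1* counts was 1.39 in slow #1 and 1.25 in slow #2, against 1.09 in the wild type. It was higher in both clones, by 0.35 (95% counting interval 0.28 to 0.41) and 0.20 (0.13 to 0.27) on the log2 scale. Neither gene passed the test on its own, and the ratio has no test across libraries. Most of the *pch1* exons, 76.4%, are covered by *SPBC32F12.07c* on the opposite strand, which had a log2 fold change of 0.12 (edgeR, adjusted p = 0.501). *cdk9* shares 58 bases with *mei4*, a meiotic transcription factor gene on the same strand that was at 20.1 and 18.8 CPM in the clones and 21.8 CPM in the wild type.

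Among the members, the clones lay further apart in the 5 elongation factors than in the 5 subunits, which is a description without a test. The median size of the log2 difference between slow #1 and slow #2 was 0.32 over the 5 elongation factors, 0.13 over the 5 subunits and 0.13 over all genes tested. Beyond the members this order did not hold, with a median of 0.13 over 16 further elongation factors and histone chaperones. Over 6 other RNAPII subunits the median was 0.19. All 5 elongation factors among the members were higher in slow #2 than in slow #1, as were 3 of the 5 subunits and 49.3% of all genes. The gaps ranged in size between 0.19 for *cdk9* and 0.61 for *tfs1* in the factors, and between 0.022 for *rpb2* and 0.22 for *rpb9* in the subunits. For *tfs1*, *spt5*, *spt6* and *cdk9*, slow #1 was therefore the clone nearer to the wild type.

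The 95% intervals of *rpb1*, *rpb2*, *rpb4*, *spt5*, *cdk9* and *pch1* lay within 1.5-fold of no change in both directions. Those of the other 4 genes reached past 1.5-fold in one direction, downward for *rpb3* and upward for *rpb9*, *tfs1* and *spt6*, so that for them a change of that size is neither shown nor left out by these libraries. With libraries scaled to *act1*, *nda2* and *fba1* the SE of *rpb1* was 0.326, and the statement on 1.5-fold holds for TMM scaling.

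Compared per kilobase of exon, the members spanned about an order of magnitude. *spt6* was highest, with 336 ± 51.9 CPM per kb in the clones (SD, n = 2) and 266 in the wild type, and *rpb9* was lowest, with 39.1 ± 4.26 in the clones and 29.7 in the wild type. Between them the order in the clones was *tfs1* (211 ± 62.3 in the clones, 159 in the wild type), *rpb2* (179 ± 1.94 and 173), *rpb1* (153 ± 6.42 and 149), *rpb4* (147 ± 9.03 and 145), *spt5* (130.2 ± 16.4 and 114), *cdk9* (91.8 ± 8.57 and 81.2), *pch1* (61.4 ± 10.2 and 65.3) and *rpb3* (42.1 ± 2.91 and 52.5). The ranges of the clones overlapped between *tfs1* and *rpb2*, *rpb1* and *rpb4*, *rpb4* and *spt5*, and *rpb3* and *rpb9*, and these neighbors are not ordered beyond their spread. The wild type had the same order except that *rpb2* stood above *tfs1*. Divided by coding length instead, *rpb3* came to 190 ± 13.1 CPM per kb in the clones and 237 in the wild type. *rpb1* came to 155 ± 6.50 and 151, and 8 of the 10 genes changed rank. The span was narrower on this scale, between 362 ± 55.9 (*spt6*) and 95.1 ± 10.4 (*rpb9*) in the clones. In the wild type *rpb4*, at 293, stood above *spt6*, at 286.

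The promoters of the members, 250 bases before to 50 bases after the start in RefSeq (ASM294v3), were searched for a pair of motifs. The letters TATAAA, searched on both strands, were found in 6 of the 10 and in 48.1% of 5144 promoters of that length, and were missing from the windows of *spt5*, *spt6*, *tfs1* and *rpb9*. The letters CAGTCACA (HomolD), also searched on both strands, were found in none of the 10 and in 2.66% of the promoters. Genes tested had a median log2 fold change of -0.036 with TATAAA (2416 genes) and of -0.028 without it (2601 genes).

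**Figure D3:**
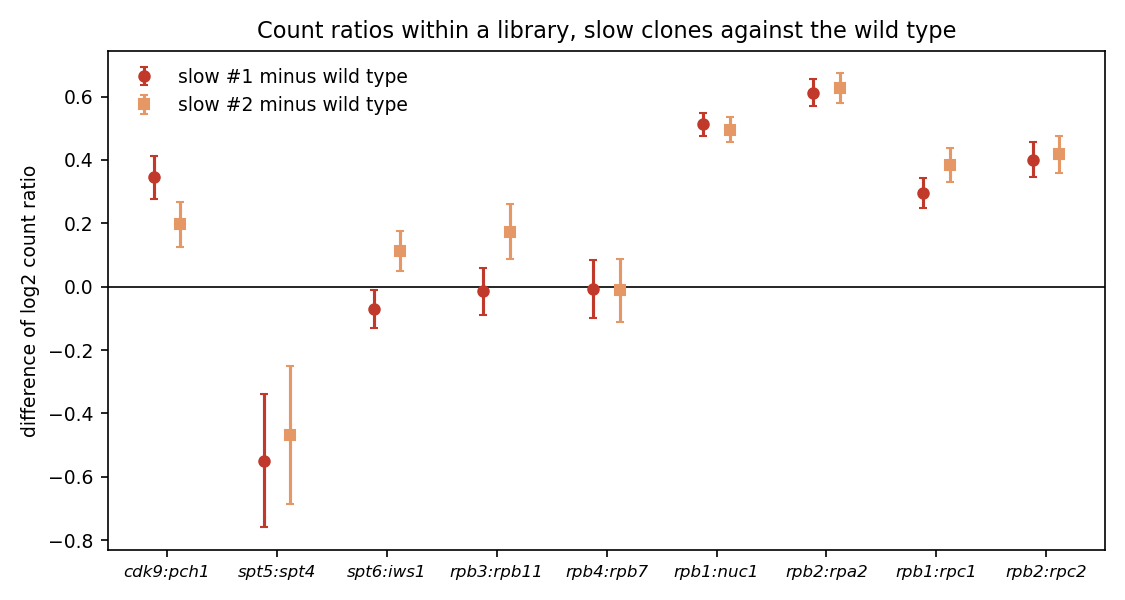
Difference of the log2 count ratio of gene pairs, slow #1 (red circles) and slow #2 (orange squares) minus the wild type, with 95% counting intervals; each ratio is taken within a library. The ratio of *rpb4* to *rpb7* is at 0 in both clones, that of *spt5* to *spt4* is below it, and those of *rpb1* and *rpb2* to the matching subunits of RNA polymerases I and III are above it.

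The remaining subunits of RNAPII were examined as a list beside the 5 described, and 6 of the 7 asked for were matched (*rpb12* was not). None was called at an adjusted p under 0.01, 4 were lower in both clones and 1 was higher in both, beside 42.6% and 42.7% of all genes tested, and the median log2 fold change was -0.44. At an unadjusted p under 0.05, 3 of the 6 were lower, beside 17.9% of all genes. Among these was *rpb8*, named after its value was seen (log2 fold change -0.54; edgeR, adjusted p = 0.048; DESeq2, adjusted p = 0.044), which did not pass the fold threshold. *rpb6* was the lowest, with 62.3 CPM in slow #1 and 56.6 CPM in slow #2, against 114 CPM in the wild type (log2 fold change -0.94 ± 0.121; edgeR, adjusted p = 0.012). It missed the strict threshold in edgeR, was called at an adjusted p under 0.05, and was called lower by DESeq2 at the strict threshold (adjusted p = 7.8e-05). *rpb10*, the highest, had a log2 fold change of 0.042 (edgeR, adjusted p = 0.814). In RefSeq the products of *rpb5*, *rpb6*, *rpb8* and *rpb10* are named as RNA polymerase subunits without a class. Only those of *rpb7* and *rpb11* name RNA polymerase II. The lower values in this list thus cannot be assigned to RNAPII alone. For the pairs that bind each other, the ratio of *rpb4* to *rpb7* was 1.28 in slow #1, 1.27 in slow #2 and 1.28 in the wild type. The ratio of *rpb3* to *rpb11* was 1.49 in slow #1 and 1.70 in slow #2, against 1.51 in the wild type. The stalk pair thus kept its proportion in both clones, and *rpb11* was, like *rpb3*, lower in both (log2 fold change -0.39; edgeR, adjusted p = 0.138).

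Genes for the largest and the second subunits of RNA polymerases I and III were lower in both clones in 4 of 4 cases, beside 42.6% of all genes tested, whereas *rpb1* and *rpb2* were near the wild-type level. The difference between these groups of genes was not tested, and the contrast does not hold for all RNAPII subunits. *rpb3* and *rpb11* were also lower in both clones (log2 fold change -0.32 and -0.39). *rpb4* and *rpb7* were near no change (0.019 and 0.029), and *rpb9* was higher in both clones (0.40). The list of other RNAPII subunits had a median of -0.44, beside -0.42 for the subunits of RNA polymerases I and III. *nuc1*, *rpa2*, *rpc1* and *rpc2* had log2 fold changes between -0.57 (*rpa2*; edgeR, adjusted p = 0.034) and -0.30 (*rpc1*; edgeR, adjusted p = 0.132), and none was called. The ratio of *rpb2* to *rpa2* counts was 2.18 in slow #1 and 2.20 in slow #2, against 1.43 in the wild type. The ratio of *rpb1* to *nuc1* was 1.72 in slow #1 and 1.70 in slow #2, against 1.21 in the wild type. For RNA polymerase III the ratio of *rpb2* to *rpc2* was 3.90 in slow #1 and 3.94 in slow #2, against 2.95 in the wild type, and that of *rpb1* to *rpc1* was 3.55 and 3.78, against 2.89. All 4 ratios were higher in both clones, and the clones lay closer to each other than to the wild type. Both clones were set against the same wild-type library, so their agreement is not independent. These pairs were chosen with values known, and no test across libraries was run on a ratio.

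**Figure D4:**
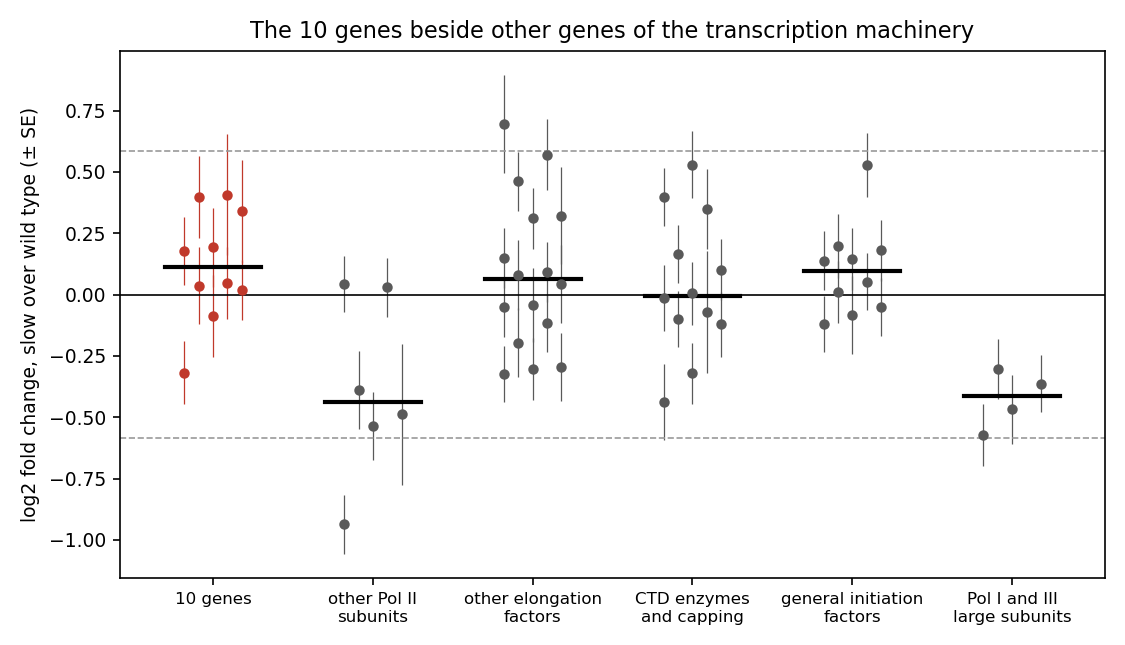
edgeR log2 fold change, slow over wild type, with its SE (thin lines) for the 10 genes (red) and for 5 lists of other genes of the transcription machinery (gray); thick bars are medians and dashed lines mark 1.5-fold. The medians are 0.11 for the 10 genes, -0.44 for the other RNAPII subunits and 0.062 for other elongation factors. They are -0.0043 for CTD and capping enzymes, 0.095 for general initiation factors and -0.42 for the RNA polymerase I and III subunits. The list of other RNAPII subunits includes genes whose product names give no polymerase class.

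Other factors of the elongating and initiating polymerase were scattered around no change, as the 10 genes were, and none was called. Of 16 further elongation factors and histone chaperones, 4 on the higher and 1 on the lower side had an unadjusted p under 0.05, while 9 exceeded the wild type in both clones and 6 were below it in both. Beside these counts, 17.5% of all genes tested were on the higher and 17.9% on the lower side at that p, and 42.7% exceeded and 42.6% were below the wild type in both clones. They ranged between *spt4* and *cdc73*, a subunit of the Paf1 complex (log2 fold change -0.32; edgeR, adjusted p = 0.099). Of the 13 CTD kinases, CTD phosphatases and capping enzymes 12 were matched (*pce1* was not), with *mcs6*, the kinase of TFIIH, lowest at -0.44 (edgeR, adjusted p = 0.099). Of 10 general initiation factors, *tfg1*, a subunit of TFIIF, was highest at 0.53 (edgeR, adjusted p = 0.044) and *tfg2* lowest at -0.12 (edgeR, adjusted p = 0.489).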

How the data were processed

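The authors trimmed reads with Trimmomatic 0.36, aligned them to ASM294v2 with STAR 2.5.1 and used featureCounts (version not given in the sources used) to assign pairs to genes by strand. The deposited table holds raw counts, not normalized, and the summed exon length of each gene, another deposited value; 0 of its per-sample columns were left unmapped. Groups were compared with edgeR 4.0.16 (R 4.3.3) over all 6418 genes passing filterByExpr (minimum count 10, minimum total 15), with TMM factors of 1.02 (slow #1), 0.978 (slow #2) and 1.01 (wild type) and Benjamini-Hochberg adjustment. The dispersion was 0.0124, with 5.25 prior and 1 residual degree of freedom. SE is the size of the fold change over the square root of F. Differences per clone are log2 CPM with a prior count of 2, with exact binomial intervals of the counts. Intervals of pair ratios are normal approximations on the log scale. DESeq2 1.42.0 was an alternative, and the fit was tested on simulated data. Of the identifiers, 6860 matched a RefSeq symbol (ASM294v3). Proteins were aligned with Biopython 1.88. The members, lists and pairs were chosen with earlier results of these data known. Named are the members, each list's called, highest and lowest genes, and features overlapping a member by at least 50 bases. Genes of other lists outside this rule were named after their values were seen. An item that this rule names is not reported here.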

Additional observations from a re-analysis of the deposited data

How the results depend on the processing

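No member was called under any alternative to TMM scaling, the count filter, the dispersion, the feature set, the tool or the threshold, and 65 of 70 member fold changes kept their direction. The 5 that did not came with libraries scaled to *act1*, *nda2* and *fba1*, which put *rpb1* at -0.15, *rpb2* at -0.14, *rpb4* at -0.16, *spt5* at -0.0034 and *cdk9* at -0.015 on the log2 scale. That scaling moved the median of the members to -0.076 and of all genes to -0.17, so that the members lay 0.097 above all genes there and 0.10 above them with TMM, and it widened the SE of *rpb1* to 0.326. With TMM the 3 reference genes themselves differed from the wild type on the log2 scale. In slow #1 and slow #2, *act1* was at 0.33 and 0.31, *nda2* at 0.10 and 0.11 and *fba1* at -0.076 and 0.35. The part of these differences in the moved values was not tested. The lowest adjusted p of any member was 0.11 (*rpb9*, upper-quartile factors, edgeR). Without slow replicate 2 and without slow replicate 1, the members' median was 0.064 and 0.17. Leaving out each clone in turn gave -0.0072 to 0.079 for *rpb1*, -0.045 to 0.080 for *rpb4* and -0.27 to 0.072 for *pch1*, whose direction thus depends on the clone. No paired analysis was possible because the wild type has 1 library. The wild type has no replicate, and depth was not varied.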
